A study of Homo sapiens with 10 samples.

Results

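The genes described here encode 19 cytosolic aminoacyl-tRNA synthetases or their subunits, 16 mitochondrial synthetases, and the scaffold proteins AIMP1 and AIMP2. They were chosen by name and matched to the Ensembl identifiers of the deposited tables, in which all 37 were found among 20327 genes. Synthetases outside this set were not analysed here. Polyadenylated RNA had been sequenced from hTERT RPE-1 cells, a line of human retinal pigment epithelial cells immortalised with telomerase. All libraries came from wild-type cells held for 48 h in medium with 0.1% fetal bovine serum. In the first experiment, 3 libraries from cells given the vehicle DMSO for 30 min were set against 3 from cells given 200 µM merbarone for 30 min. In the second, 2 libraries from untreated cells, which received no vehicle, were set against 2 from cells given 200 µM merbarone for 2 h. Merbarone is a catalytic inhibitor of DNA topoisomerase II. The labels do not say whether replicates were separate cultures, so p-values here measure the spread between libraries, which may be technical.

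Aminoacyl-tRNA synthetases join each amino acid to its tRNA, the step that supplies the ribosome with its substrates. Human cells keep separate nuclear genes for most of the cytosolic and mitochondrial enzymes, but GARS1 and KARS1 each supply both compartments, and mitochondria lack a glutaminyl enzyme of their own and amidate glutamyl-tRNA instead. Several cytosolic enzymes (EPRS1, IARS1, KARS1, LARS1, MARS1, QARS1 and RARS1 in this set) sit in a multi-synthetase complex held together by scaffold proteins that include AIMP1 and AIMP2. A number of cytosolic synthetase genes are known targets of ATF4, the transcription factor of the amino acid response, which binds composite C/EBP-ATF elements with the letters TGATGNAA.

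The libraries held 26633780 to 38225538 reads in the 30 min experiment and 11956652 to 13691014 in the 2 h experiment. Of 12 pigment epithelium markers, 4 averaged at least 1 RPKM over the libraries (BEST1, PMEL, OTX2 and RDH5). The visual cycle genes RPE65, RLBP1 and LRAT, the pigment genes TYR and TYRP1, and TTR averaged below 0.1 RPKM, so these defining genes of the tissue were near 0 in these cultured cells, while RDH5, also a visual cycle enzyme, averaged 8.47 RPKM. The epithelial keratins KRT7, KRT8 and KRT18 were present, CDH1 and EPCAM were near 0, and VIM averaged 804 RPKM. Among the photoreceptor and endothelial markers none averaged 1 RPKM, and CD68 was the only leukocyte marker that did. The summed pigment epithelium markers lay between 14.8 and 22.2 RPKM in the 30 min experiment and between 34.3 and 38.9 RPKM in the 2 h experiment, with treated and control libraries overlapping in both. At 2 h the summed epithelial markers went from between 64.8 and 72.6 RPKM to between 73.3 and 79.2 RPKM, the photoreceptor markers from between 0.502 and 0.574 to between 1.38 and 1.95, and the leukocyte markers from between 21.0 and 21.2 to between 17.4 and 19.2. The fibroblast markers, mostly VIM, went from between 812 and 823 to between 840 and 855 RPKM. The part of these shifts in the results below was not tested. In bulk RNA, fewer cells of a type and less of a transcript per cell cannot be told apart.

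After 2 h of merbarone, 5 of the 37 genes rose and none fell: MARS1, TARS1, CARS1, GARS1 and AARS1. All 5 encode cytosolic enzymes. Their mean RPKM was 37.0% (AARS1) to 91.3% (MARS1) above that of the untreated libraries. MARS1 shares its end with DDIT3. With all DDIT3 reads removed, MARS1 was 27.4% higher and lost its call, which leaves 4 genes. That removal takes out the most that DDIT3 could have added, unless shared reads were counted for MARS1 alone. None of the 16 mitochondrial genes and neither scaffold gene passed the test. After 30 min, no member passed. The test was limma's moderated test on log2(RPKM + 1) two-sided, over every gene averaging 1 RPKM or more in the libraries of the fit, with a Benjamini-Hochberg adjusted p under 0.05. RPKM is the read number per kilobase of gene, scaled to the depth of the library. At 2 h, 30 of the 37 genes were above that level and could be tested (18 cytosolic, 10 mitochondrial, AIMP1 and AIMP2), so the call is 5 of 30 higher against 5.98% of all 6620 genes tested. For lower calls it is 0 of 30 against 7.1% of all genes. Fold changes on this scale understate the change of genes with low values.

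**Figure D1:**
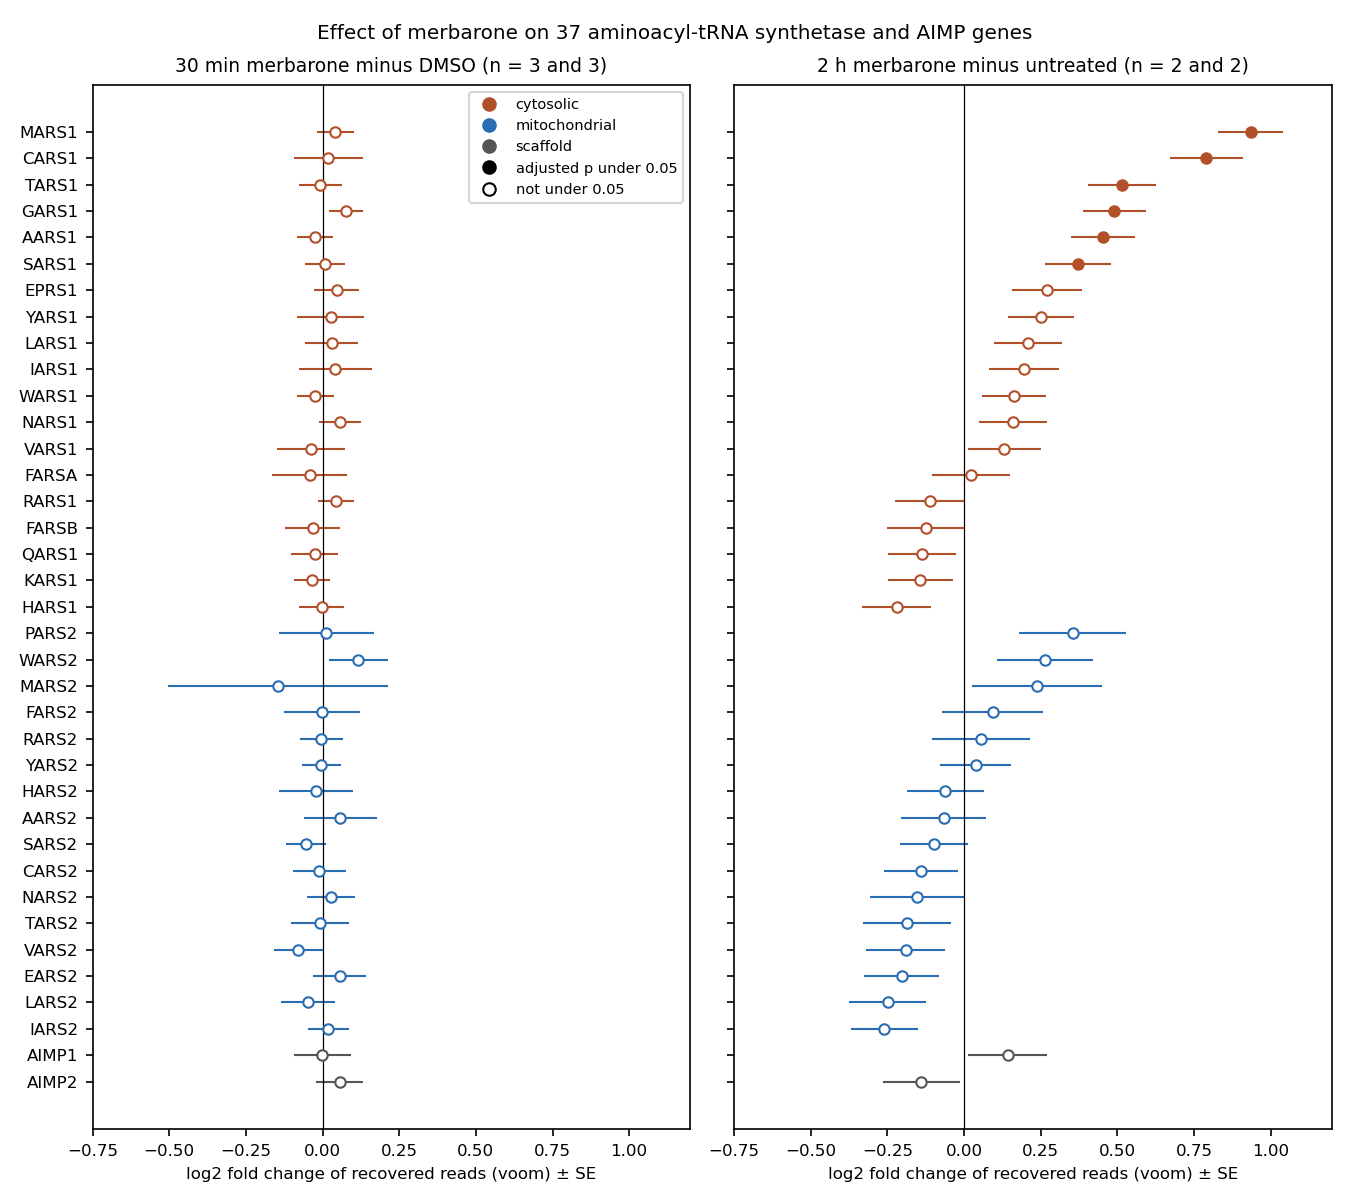
Fold change of each member on the log2 scale, from limma voom on reads recovered from the RPKM, a fit described below. The panels show 30 min of merbarone against DMSO and 2 h of merbarone against untreated, with standard errors as bars. At 2 h MARS1 lies highest, at 0.93, and the other genes that rose in that fit lie between 0.37 (SARS1) and 0.79 (CARS1). The 30 min values stay between -0.15 and 0.12.

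The promoters of these 5 genes are shown because all 5 hold the letters TGATGNAA, read on either strand, within 250 bases before to 50 bases after a RefSeq transcription start. The windows of 30 bases below are printed 5′ to 3′ on the strand of the gene, with the match in capitals, and their GRCh37 positions come from an exact match to that genome.
MARS1: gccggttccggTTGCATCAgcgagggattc
TARS1: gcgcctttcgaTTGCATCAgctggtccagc
CARS1: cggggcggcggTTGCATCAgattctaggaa
GARS1: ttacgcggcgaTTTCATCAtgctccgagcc
AARS1: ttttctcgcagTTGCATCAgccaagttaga
The windows lie at chr12:57881836-57881865 (plus strand) for MARS1, chr5:33441062-33441091 (plus) for TARS1, chr11:3078637-3078666 (minus) for CARS1, chr7:30634450-30634479 (plus) for GARS1 and chr16:70323578-70323607 (minus) for AARS1. 4 of the windows carry the same 8 letters, TTGCATCA, and GARS1 carries TTTCATCA. The match began 187 bases before the start in AARS1, 33 bases before it in GARS1, 4 before it in MARS1, 2 before it in CARS1 and 2 after it in TARS1. CARS1, GARS1 and TARS1 each have a pair of promoter entries, of which 1 holds the letters.

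A RefSeq promoter entry (GRCh38.p14) existed for 32 of the 37 genes, all but LARS1, VARS1, YARS1, AARS2 and VARS2. Of these, 8 held the letters on either strand: 7 of 16 cytosolic genes, 1 of 14 mitochondrial genes and neither scaffold gene. The same letters occurred in 3.62% of all 35116 promoters of the table and in 2.16% of the 5226 genes tested at 2 h that had an entry. The cytosolic genes with a match that did not pass the test at 2 h were IARS1 and NARS1, and the mitochondrial one was YARS2. SARS1, which passed on reads but not in the main test, had no match in its promoter entries.
IARS1: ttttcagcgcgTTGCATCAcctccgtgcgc
NARS1: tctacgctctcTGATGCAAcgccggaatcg
YARS2: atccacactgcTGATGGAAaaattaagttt
These lie at chr9:95055974-95056003 (minus), chr18:55289036-55289065 (minus) and chr12:32909010-32909039 (minus). The IARS1 window has the same 8 letters as that of MARS1, placed 13 bases before the start. A match of letters is a description and does not show binding.

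MARS1, methionyl-tRNA synthetase and a member of the complex, spans chr12:57869228-57911352 on the plus strand of GRCh37. Its level was 3.38 and 3.67 RPKM in the untreated libraries and 6.35 and 7.13 RPKM after 2 h of merbarone. Both treated libraries lay above both untreated ones and above all 6 libraries of the 30 min experiment. The log2 fold change was 0.77 (SE 0.09, adjusted p = 0.00119 by limma, n = 2 and 2). The end of MARS1 overlaps DDIT3, a stress-induced transcription factor gene on the other strand at chr12:57910371-57915520. The library kit marks strand, but strand use in counting is not given in the sources used here. Only part of DDIT3 lies within MARS1, and with counting by strand none of its reads would fall in MARS1. Taking out every DDIT3 read, as below, therefore removes the most that DDIT3 could have added, unless shared reads were counted for MARS1 alone. How shared reads were counted is not known. DDIT3 itself went from 379 and 403 reads to 1720 and 1869 reads, while MARS1 went from 1895 and 1850 reads to 3662 and 3920. With every DDIT3 read taken out of the MARS1 reads, an alternative chosen after seeing the data, MARS1 had 2.70 and 2.87 RPKM in the untreated libraries and 3.37 and 3.73 RPKM after 2 h. The groups then still did not overlap, but the log2 fold change was 0.26 (SE 0.08) and its adjusted p by limma was 0.0697, so the call was lost. The read-based fit described below kept it, with an adjusted p of 0.0346 by limma voom and a log2 fold change of 0.35.

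TARS1, the threonyl enzyme, spans chr5:33440802-33468196 on the plus strand and overlaps no other annotated gene. Its level was 3.94 and 3.66 RPKM in the untreated libraries and 5.03 and 5.85 RPKM after 2 h of merbarone. The treated libraries lay above both untreated ones. The log2 fold change was 0.42 (SE 0.10, adjusted p = 0.0235 by limma), with an adjusted p of 0.238 without the second treated library.

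CARS1, the cysteinyl enzyme, spans chr11:3022152-3078843 on the minus strand and also overlaps no other gene. Its level was 0.774 and 0.751 RPKM in the untreated libraries and 1.27 and 1.37 RPKM after 2 h. It had the second largest rise in mean RPKM of the 5, at 73.1%, but a log2 fold change of only 0.40 (SE 0.06, adjusted p = 0.00489 by limma), since its level is close to the added 1. On recovered reads, without that added value, its log2 fold change was 0.79 (adjusted p = 1.33e-04 by limma voom).

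GARS1, the glycyl enzyme of both compartments, spans chr7:30620149-30673649 on the plus strand. Its level was 3.16 and 3.14 RPKM in the untreated libraries and 4.35 and 4.50 RPKM after 2 h. The treated libraries lay above both untreated ones, and replicates lay closer to each other than in MARS1 or TARS1. The log2 fold change was 0.39 (SE 0.08, adjusted p = 0.0169 by limma), and the adjusted p was 0.117 or 0.153 when the first or second treated library was left out.

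AARS1, the alanyl enzyme, spans chr16:70285886-70323610 on the minus strand. Its start overlaps DDX19B on the other strand. Its level was 3.60 and 3.68 RPKM in the untreated libraries and 4.83 and 5.15 RPKM after 2 h. Both treated libraries were again the higher ones. The log2 fold change was 0.37 (SE 0.08, adjusted p = 0.0244 by limma), and the adjusted p was 0.130 or 0.238 without the first or second treated library. The fits that leave out a library keep 1 library in an arm, which is then assumed to vary like the others. Without the first treated library MARS1 and TARS1 passed, and without the second MARS1 alone passed. CARS1 then averaged below 1 RPKM and was not tested.

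**Figure D2:**
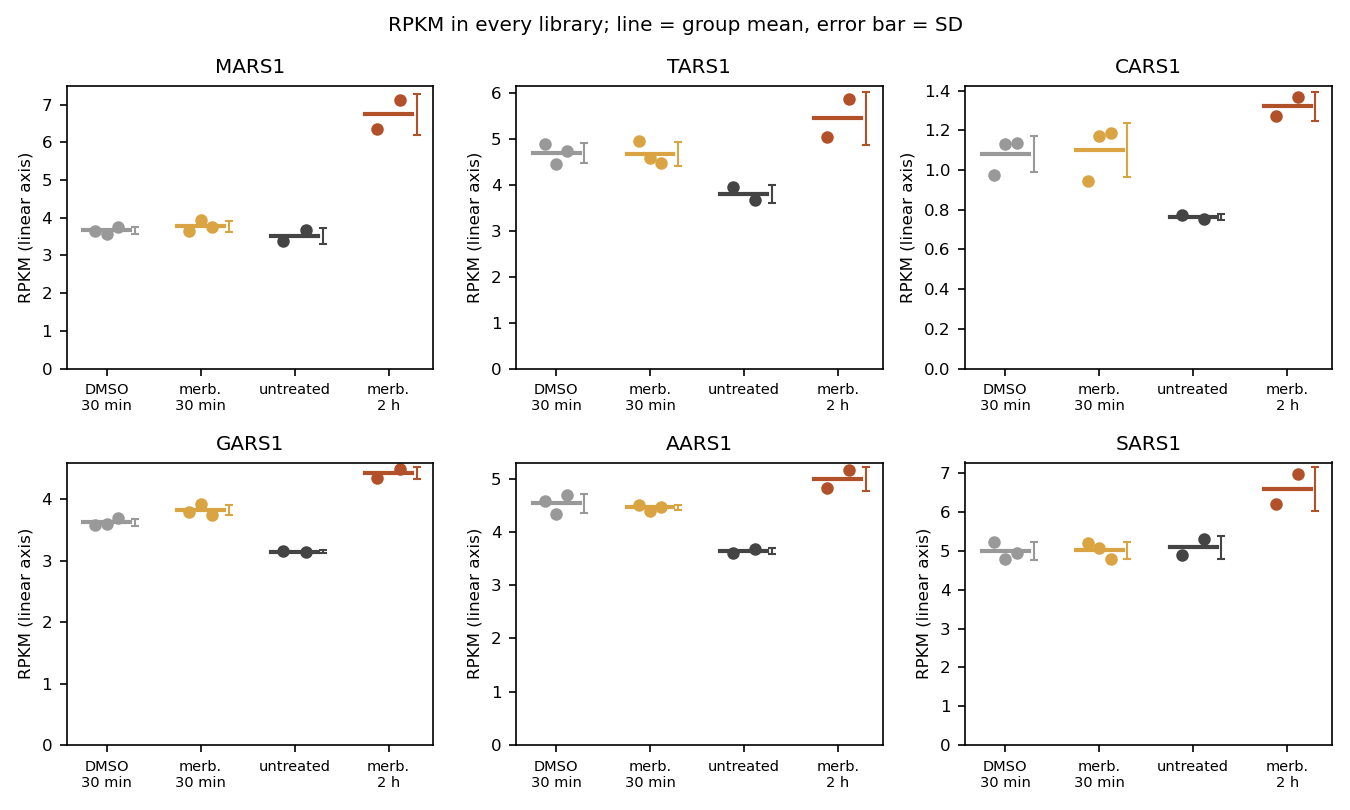
RPKM in each of the 10 libraries for the members that passed the test at 2 h and for SARS1, which did not. In each of these genes the 2 libraries after 2 h of merbarone lie above the untreated ones and above all DMSO libraries. The position above all DMSO libraries held for 14 of the 37 members, and its share over all genes was not computed. The untreated libraries of AARS1, CARS1, GARS1 and TARS1 lie below all DMSO libraries.

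SARS1, the seryl enzyme at chr1:109756540-109780804, was the cytosolic gene nearest to the threshold from outside. Its level was 4.89 and 5.30 RPKM in the untreated libraries and 6.20 and 6.99 RPKM after 2 h. The groups did not overlap, and the log2 fold change was 0.32 (SE 0.10, adjusted p = 0.0597 by limma). Other settings carried SARS1 over the threshold, among them median scaling of the libraries (adjusted p = 0.0455 by limma) and a fit on reads, where its log2 fold change was 0.37 (adjusted p = 0.0268 by limma voom). That fit used reads recovered from the deposited RPKM, required a mean of 10 reads, and so covered all 37 genes. It called 6 higher, the same 5 with SARS1, against 7.94% of 13440 genes, and 0 lower, against 6.09%.

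The remaining cytosolic genes outside the complex had log2 fold changes between -0.18 and 0.19 at 2 h. YARS1, the tyrosyl enzyme, had 2.85 and 2.98 RPKM in the untreated libraries and 3.25 and 3.70 RPKM after 2 h (log2 fold change 0.19, adjusted p = 0.166 by limma). WARS1, the tryptophanyl enzyme, had 2.84 and 2.99 against 3.20 and 3.32 RPKM, with a log2 fold change of 0.12. NARS1 (asparaginyl) had 5.68 and 4.90 against 5.70 and 6.10 RPKM, VARS1 (valyl) 2.65 and 2.62 against 2.82 and 2.96 RPKM. In all 4 of these genes the treated libraries were the higher ones, without passing the test. HARS1, the histidyl enzyme, was the one gene outside the complex whose treated libraries lay lower, at 3.63 and 3.91 against 4.40 and 4.38 RPKM (log2 fold change -0.18, adjusted p = 0.185 by limma). It overlaps its mitochondrial counterpart HARS2 on the other strand, so reads of the overlap cannot be assigned if strand was not used. FARSA and FARSB encode the alpha and beta subunits of 1 phenylalanyl enzyme. FARSA had 3.77 and 4.22 against 3.77 and 4.35 RPKM, so its groups overlapped. FARSB, too low for the main test, had 592 and 491 reads against 513 and 536 reads (log2 fold change -0.12 on reads, adjusted p = 0.552 by limma voom).

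Among the 7 enzymes of the complex, MARS1 was the only one that passed at 2 h, and their median log2 fold change was 0.13. Of the 11 tested cytosolic genes outside it, 4 passed and the median was 0.19. EPRS1, whose 1 protein carries both the glutamyl and the prolyl enzyme, had 1.87 and 1.50 RPKM in the untreated libraries and 2.06 and 1.98 RPKM after 2 h. LARS1 (leucyl) had 1.60 and 1.40 against 1.70 and 1.77 RPKM. In both, the treated libraries were higher, with log2 fold changes of 0.18 and 0.13 and adjusted p of 0.194 and 0.258 by limma. IARS1 (isoleucyl) had 1.87 and 1.55 against 1.83 and 2.09 RPKM, and these overlapped. The other members of the complex had lower treated libraries. QARS1, the glutaminyl enzyme and the highest of all members in deposited RPKM, had 9.97 and 10.4 against 9.61 and 8.91 RPKM. KARS1 (lysyl) had 6.52 and 7.10 against 6.17 and 6.15 RPKM, and RARS1 (arginyl) had 2.64 and 2.46 against 2.32 and 2.40 RPKM. None of these 3 passed, with log2 fold changes of -0.13, -0.12 and -0.08. By catalytic fold, 2 of 10 tested class I and 3 of 8 tested class II cytosolic genes rose, where 5.98% of all genes tested did. MARS1 is among these class I genes and is the only call in the complex, and that call was lost without the DDIT3 reads.

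None of the 10 tested mitochondrial genes passed at 2 h by limma, and at an unadjusted p under 0.05 there was 1 higher (PARS2) and 1 lower (IARS2). Over all genes, 2070 of 6620 were under that unadjusted p, in either direction. Their log2 fold changes ran from -0.17 (IARS2) to 0.21 (PARS2). PARS2, the prolyl enzyme, was nearest to the threshold, with 1.28 and 1.34 RPKM in the untreated libraries and 1.63 and 1.72 RPKM after 2 h. Its groups did not overlap, and its adjusted p was 0.0700 by limma. It rested on only 122 to 171 reads a library in that experiment, and the read-based fit gave an adjusted p of 0.182 by limma voom. MARS2, an intronless gene for the methionyl enzyme, was also higher, at 1.81 and 2.13 against 2.19 and 2.43 RPKM (log2 fold change 0.16, adjusted p = 0.228 by limma).

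The mitochondrial genes whose treated libraries lay below both untreated ones were IARS2, EARS2, TARS2 and VARS2 among those tested, and CARS2, LARS2 and NARS2 among those too low for the test. IARS2 had 2.17 and 2.10 RPKM in the untreated libraries and 1.70 and 1.88 RPKM after 2 h, with an adjusted p of 0.153 by limma. EARS2, the glutamyl enzyme, had 1.41 and 1.38 against 1.25 and 1.17 RPKM. VARS2 had 2.12 and 2.34 against 1.93 and 1.97 RPKM, and TARS2 1.23 and 1.10 against 1.02 and 1.03 RPKM. None of these passed the test. The groups overlapped in AARS2 (1.84 and 2.02 against 1.86 and 1.81 RPKM), HARS2 (5.08 and 5.73 against 5.05 and 5.28 RPKM), SARS2 (3.05 and 3.33 against 2.81 and 3.16 RPKM) and YARS2 (3.59 and 3.00 against 3.45 and 3.30 RPKM).

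The 6 mitochondrial genes below the level required by the main test were CARS2, FARS2, LARS2, NARS2, RARS2 and WARS2. They held 149 to 687 reads a library in the 2 h experiment. The authors' gene length included introns for most genes, which lowers the RPKM of long genes, and FARS2 at 568149 bases is the longest member. Per kilobase of canonical exon with DMSO, CARS2 stood at 31.1 and the others between 5.62 (WARS2) and 12.9 (RARS2). The medians on that scale were 9.11 for the mitochondrial and 48.7 for the cytosolic genes. The share of gene length in their low RPKM was not tested. LARS2 had 590 and 539 reads in the untreated libraries and 537 and 469 after 2 h (log2 fold change -0.25 on reads, adjusted p = 0.195 by limma voom). WARS2 had 228 and 172 reads against 253 and 252 (log2 fold change 0.26, adjusted p = 0.276 by limma voom). In RPKM the groups of LARS2 and WARS2 did not overlap. CARS2 had 687 and 578 reads against 620 and 591, which after scaling to depth was 0.714 and 0.669 against 0.627 and 0.628 RPKM (log2 fold change -0.14 on reads). NARS2 had 235 and 202 reads against 208 and 207, or 0.127 and 0.122 against 0.109 and 0.114 RPKM (log2 fold change -0.15 on reads). RARS2 had 199 and 207 reads against 213 and 233 (log2 fold change 0.05 on reads). The RARS2 groups overlapped in RPKM, as did those of FARS2, the phenylalanyl enzyme, with 187 and 149 reads against 190 and 188. All 16 mitochondrial genes were covered by the read-based fit, and none passed in it, with IARS2 alone under an unadjusted p of 0.05. Of all 13440 genes in that fit, 3866 were under it.

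AIMP1 had 1.91 and 1.52 RPKM in the untreated libraries and 1.97 and 1.79 RPKM after 2 h. AIMP2 had 2.83 and 2.70 against 2.51 and 2.52 RPKM. The AIMP1 groups overlapped, the AIMP2 treated libraries were the lower ones, and the log2 fold changes were 0.09 and -0.10 (adjusted p = 0.506 and 0.392 by limma). Both overlap genes on the other strand, TBCK and EIF2AK1.

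As sets, the cytosolic genes had a median log2 fold change of 0.13 at 2 h, with 14 of 18 above 0. The mitochondrial genes had a median of -0.06, with 3 of 10 above 0. Over all genes tested the median was -0.05, and 39.7% lay above 0, so the mitochondrial set lay near the median of all genes and the cytosolic set above it. On recovered reads the medians were 0.20 for the 19 cytosolic and -0.08 for the 16 mitochondrial genes, against 0.00 for all genes. The treated libraries lay wholly above the untreated ones in 12 and wholly below in 4 of the 18 tested cytosolic genes, against 22.5% and 39% of all genes tested. For the 10 tested mitochondrial genes the counts were 2 and 4. With 2 libraries a group, such separation was common in these data.

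The difference between the cytosolic and mitochondrial medians was 0.20 at 2 h and 0.01 at 30 min, as descriptions without a test. Averaged over each set, the cytosolic genes stood at 2.03 and 2.01 on the log2(RPKM + 1) scale in the untreated libraries and at 2.15 and 2.22 after 2 h. The mitochondrial genes stood at 1.16 and 1.17, then at 1.13 and 1.16. The cytosolic mean minus the mitochondrial mean was 0.87 and 0.84 in the untreated libraries and 1.01 and 1.06 after 2 h. In the DMSO libraries it was 1.08, 1.01 and 1.09, and after 30 min of merbarone 1.11, 1.05 and 1.06. The 2 h libraries thus lay within the range of the DMSO libraries, and the untreated libraries were the ones that stood below every other library on this measure.

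**Figure D3:**
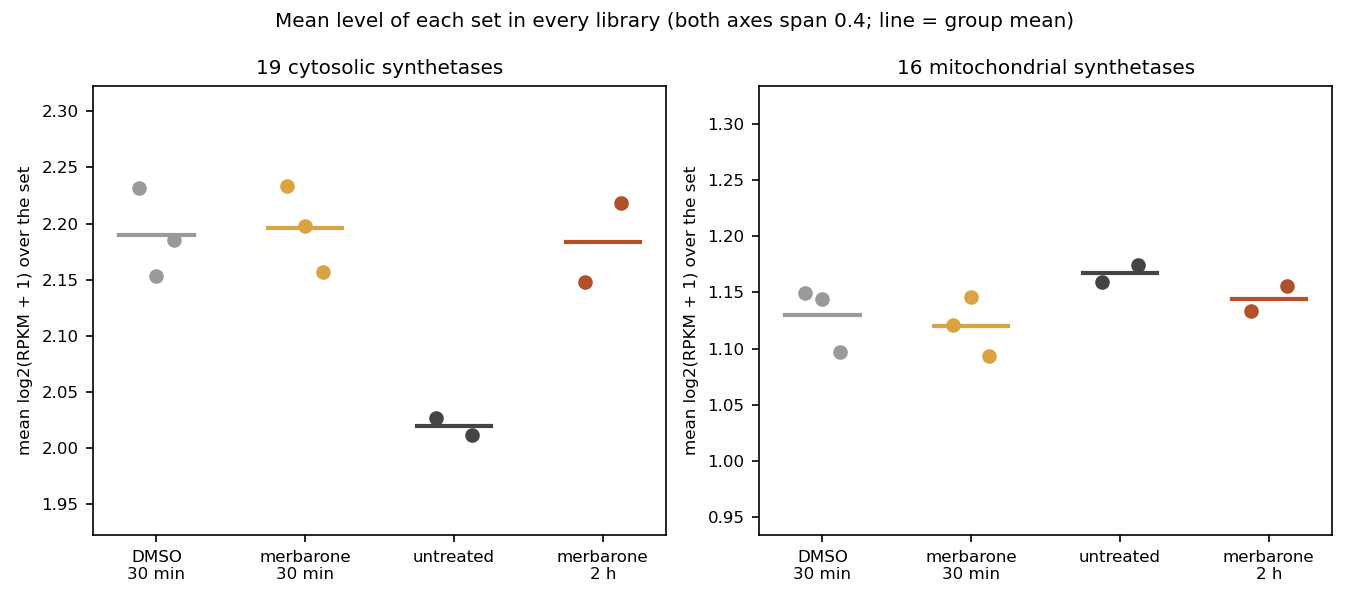
Mean log2(RPKM + 1) of the cytosolic and of the mitochondrial set in each library. The cytosolic mean is lowest in the untreated libraries, at 2.03 and 2.01, while the mitochondrial mean lies between 1.09 and 1.17 in all 10 libraries.

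The same contrast was read within partner pairs, the cytosolic and mitochondrial enzymes for 1 amino acid, on recovered reads. Of 13 such pairs with 1 gene on each side, 10 had the larger log2 fold change in the cytosolic gene at 2 h, and the median difference was 0.46. The largest difference was in the cysteinyl pair, 0.93, with 0.79 for CARS1 and -0.14 for CARS2. It was 0.70 in both the threonyl pair (0.51 for TARS1, -0.19 for TARS2) and the methionyl pair (0.93 for MARS1, 0.24 for MARS2). Without the DDIT3 reads the methionyl pair differed by 0.11, and the median over the pairs was 0.32, with the cytosolic gene above in 10 of 13. The alanyl pair differed by 0.52, with 0.45 for AARS1 and -0.07 for AARS2. The pairs with the larger value on the mitochondrial side were the histidyl, arginyl and tryptophanyl ones, by 0.16, 0.17 and 0.10. At 30 min 11 of 13 pairs had the larger value in the cytosolic gene, but with a median difference of only 0.03. A count of pairs without their size does not separate the experiments.

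**Figure D4:**
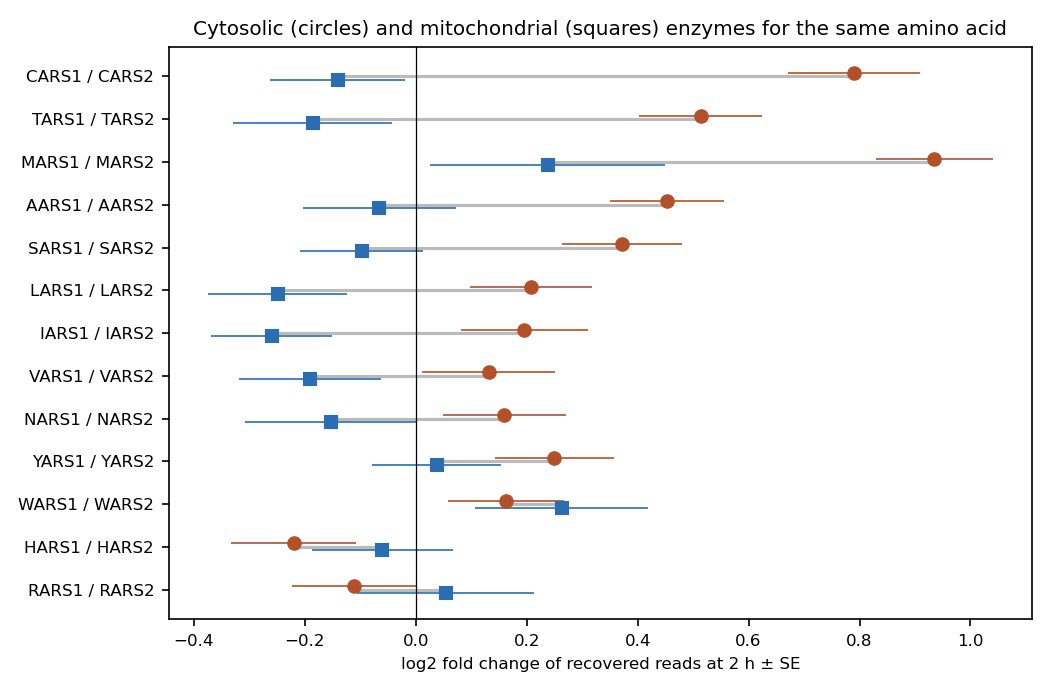
Log2 fold changes at 2 h on recovered reads of the cytosolic and mitochondrial genes of 13 amino acids, with standard errors as bars. The cysteinyl, threonyl, methionyl and alanyl pairs are farthest apart. The methionyl pair differs by 0.70 with, and 0.11 without, the DDIT3 reads.

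At 30 min, 0 of 29 tested members passed limma's test, against 0.0154% of all 6500 genes tested, which is 1 gene. At an unadjusted p under 0.05 the count was also 0, where 24 of all 6500 genes tested by limma were under it. limma voom on all 37 genes gave 0 at both thresholds, where 0.00714% of 14012 genes passed the adjusted one. The unadjusted one was met by 41 genes in that fit. Neither fit used the pairing of same-numbered libraries described below. In limma's fit with the replicate number as a block, 208 of the 6500 genes met the unadjusted threshold. MARS2, with a lower value, was the only member among them, and it did not pass the adjusted threshold. The log2 fold changes ran from -0.12 (MARS2) to 0.06 (GARS1). GARS1 was the only member whose 3 treated libraries (3.80, 3.92 and 3.75 RPKM) all lay above the 3 DMSO libraries (3.59, 3.61 and 3.69 RPKM). That separation held for 0.877% of all genes tested, and the opposite one, shown by 0 members, for 1.4%. The adjusted p of GARS1 did not pass. Here MARS1 had 3.65, 3.57 and 3.77 RPKM with DMSO and 3.64, 3.93 and 3.75 RPKM with merbarone. CARS1 had 0.976, 1.13 and 1.14 against 0.944, 1.17 and 1.19 RPKM. The groups overlapped in both genes, and the lowest CARS1 value of each group was that of replicate 1. AARS1 had 4.57, 4.34 and 4.70 against 4.50, 4.40 and 4.47 RPKM, and TARS1 4.89, 4.45 and 4.73 against 4.95, 4.58 and 4.46 RPKM. MARS2 spread most, with 2.36, 1.68 and 1.03 RPKM in the DMSO libraries and 1.99, 1.35 and 1.02 RPKM in the merbarone libraries of the same numbers. The cytosolic median was 0.01 and the mitochondrial median -0.00490, against -0.01 for all genes.

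The difference between the 2 effects, 2 h against untreated minus 30 min against DMSO, was tested in 1 fit over the 10 libraries. Only MARS1 passed, with a difference of 0.74 on the log2 scale (SE 0.09, adjusted p = 0.00460 by limma), against 1.27% of 6558 genes passing in that direction. Without the DDIT3 reads the MARS1 difference was 0.23 (adjusted p = 0.238 by limma) and no member passed. TARS1, AARS1, CARS1 and GARS1 had differences of 0.43, 0.39, 0.38 and 0.33, with adjusted p of 0.0906, 0.0542, 0.0713 and 0.0684 by limma. For these genes the 2 h effect was therefore not shown to differ from the 30 min effect in this fit. With the replicate number as a block, all 4 passed, with adjusted p of 0.0192, 0.00858, 0.00371 and 0.0135 by limma, as did MARS1, SARS1 and MARS2, against 7.69% of all genes in that direction. The numbers pair the libraries of the 30 min experiment, but those of the 2 h experiment share only a number. At an unadjusted p under 0.05 the fit without the block held these 4 genes with MARS1 and SARS1, and no mitochondrial or scaffold gene. Over all genes, 1053 of 6558 were under it there. With the block 2353 were, among them the mitochondrial genes MARS2, with a higher value, and IARS2 and EARS2, with lower ones. Time, kind of control and experiment cannot be told apart in this contrast.

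The control groups of the experiments also differed from each other. Of the 19 cytosolic genes, 13 lay lower in both untreated libraries than in every DMSO library and 1, KARS1, lay higher. Of the 16 mitochondrial genes, 6 lay lower and 5 higher. Among members averaging at least 1 RPKM over all libraries, 12 of 18 cytosolic and 3 of 9 mitochondrial genes lay lower, where 21.4% of 6558 genes did, and 1 of 18 and 4 of 9 lay higher, where 37.6% did. Mean VARS1 was 4.61 ± 0.465 RPKM (SD, n = 3) with DMSO and 2.64 ± 0.0200 RPKM (SD, n = 2) without treatment, and QARS1 was 13.7 ± 0.849 against 10.2 ± 0.317 RPKM. YARS2 was 5.16 ± 0.204 against 3.29 ± 0.419 RPKM, while PARS2 went the other way, 0.664 ± 0.0999 against 1.31 ± 0.0414 RPKM. Of the 5 genes that rose at 2 h, AARS1, CARS1, GARS1 and TARS1 lay lower in both untreated libraries than in every DMSO library. All 5 lay higher in both 2 h libraries than in every DMSO library. The same held for 14 of the 37 members in all, of which 8 were cytosolic, 5 mitochondrial and 1 a scaffold gene. Its share over all genes was not computed, so the count cannot be set against a background. Already in the untreated libraries, 37.6% of the 6558 genes lay higher than in every DMSO library. The differences between the control groups were not tested, since vehicle, experiment and depth vary together.

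For comparing genes with each other, recovered reads were also divided by the exon length of the canonical transcript, because the authors' length left long genes with low RPKM. The median level of the cytosolic genes was 3.49 times that of the mitochondrial genes in deposited RPKM with DMSO and 5.34 times per kilobase of exon. In the untreated libraries the ratios were 2.33 and 4.39. Per kilobase of exon, scaled to depth as in RPKM, the highest cytosolic genes with DMSO were KARS1 at 64.4 ± 2.16, SARS1 at 63.3 ± 2.88 and GARS1 at 58.6 ± 0.889 (SD, n = 3). KARS1 and SARS1 differed by less than their spread. The mitochondrial YARS2 stood above them at 69.2 ± 2.74, and SARS2 (45.0 ± 2.42) and IARS2 (37.6 ± 1.84) were the next mitochondrial genes. YARS2 overlaps DNM1L and KARS1 overlaps TERF2IP, each on the other strand. Reads of these overlaps cannot be assigned if strand was not used, so both ranks may include reads of the neighbours. QARS1, first in deposited RPKM, was at 51.3 ± 3.19 on this scale, beside WARS1 at 51.4 ± 0.514 and TARS1 at 50.6 ± 2.41, which did not differ from it beyond the spread. The lowest were MARS2 at 1.69 ± 0.664 and PARS2 at 2.15 ± 0.323. The authors' length for SARS2 was 34604 bases and the annotated span 15498 bases, so its deposited level depends on a gene model other than the one used here. Its reads may have been counted over that longer model, which would also affect its level per kilobase of exon.

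Other genes of tRNA charging and elongation were read from fixed lists. Of 16 genes that modify, export or proofread charged tRNAs or belong to related routes, 10 were tested at 2 h and none passed by limma, with XPOT higher and ELAC2 lower at an unadjusted p under 0.05. That unadjusted p was met by 2070 of all 6620 genes tested. EEF1E1, the third scaffold protein of the complex, had a log2 fold change of -0.08 (adjusted p = 0.543 by limma). In the read-based fit, SEPSECS, which makes selenocysteinyl-tRNA, rose by 0.88 on the log2 scale (adjusted p = 0.00402 by limma voom) and was the only one of the 16 to pass. Of 7 cytosolic elongation genes 5 were tested and none passed by limma or at an unadjusted p under 0.05. On reads EEF2K, the kinase of elongation factor 2, fell by 0.43 (adjusted p = 0.0317 by limma voom). Of 10 mitochondrial elongation and release genes none passed in either fit, and GUF1 was the only one of the 5 tested by limma with an unadjusted p under 0.05. Of 17 genes of the integrated stress response, 10 of the 13 tested rose and none fell, against 5.98% and 7.1% of all genes tested. Their median log2 fold change was 0.85, against -0.05 for all genes. This list, like the others, was chosen with earlier results of these data known. CHAC1, a glutathione-degrading enzyme, had 0.401 and 0.494 RPKM in the untreated libraries and 23.7 and 29.7 RPKM after 2 h, a rise of 4.25 on the log2 scale. SESN2, a restraint on mTORC1, had 0.853 and 0.783 against 5.53 and 7.64 RPKM and rose by 2.05. DDIT3 had 7.24 and 8.57 against 32.0 and 36.5 RPKM and rose by 1.98. None of these groups overlapped. The amino acid transporter subunit SLC3A2 had 2.55 and 3.01 against 8.42 and 9.44 RPKM and rose by 1.40. Asparagine synthetase, ASNS, had 0.841 and 0.839 against 2.95 and 3.94 RPKM and rose by 1.26. The ATF4 transcript itself had 45.6 and 53.3 against 60.0 and 66.1 RPKM, with a log2 fold change of 0.35 (adjusted p = 0.0962 by limma) and passed on reads (adjusted p = 0.0357 by limma voom).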

How the data were processed

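Gene-level RPKM for 10 libraries were deposited by the authors, 1 table a library, after 150 ng of total RNA had been prepared with a stranded mRNA kit, per the labels' protocols. The submitters' processing notes name Bowtie 1.2.0, DESeq2, edgeR and deepTools 2.4.1 and the build hg19 or GRCh37. Strand use in counting is not given in the sources used here. The authors' RPKM divide by a gene length that came within 1% of the annotated span, introns included, for 74.9% of 17234 genes. Whole reads were recovered from the RPKM steps: all values of 100% of 17680 genes were whole within 0.0001 of a read, and the libraries held 11956652 to 38225538 reads. Groups held only 2 or 3 libraries, and whether this or depth limits precision more was not tested.

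Members were matched by Ensembl identifier. The members, the other gene lists and the tests were chosen with earlier results of these data known. Each experiment was fitted on its own with limma 3.58.1 in R 4.3.3, on log2(RPKM + 1) for genes averaging 1 RPKM or more, with a mean-variance trend and Benjamini-Hochberg adjustment over all genes tested, at a threshold of 0.05. The difference between effects came from 1 fit of all libraries. limma voom on recovered reads, at a mean of at least 10 reads, covered members below 1 RPKM. Every member was reported. Values by library were given at 2 h for all members, and at 30 min for those past the threshold at 2 h. From the other lists at most 5 genes past the threshold were named, with ATF4. Genes named beyond that, at an unadjusted p or in the fit on reads alone, were chosen after their values were seen, as was the removal of DDIT3 reads. Both fits were run on simulated data with independent libraries and planted changes larger than those of any member. That simulation does not show how the fits perform on changes as small as those of the members.

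In the 30 min experiment, deviations from the group means correlated between same-numbered libraries (0.925, 0.646 and 0.605 over genes), so the numbers pair them, and a fit with the replicate number as a block was also made. The alternatives were other pseudocounts, filters, scalings and variance models, the replicate block, reads in place of RPKM, and each library left out in turn. The promoters are from RefSeq (GRCh38.p14), and gene positions from GENCODE on GRCh37.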

Additional observations from a re-analysis of the deposited data

Results flagged for a closer look

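Over all genes, 107 of 6558 passed limma's test of whether the effect at 2 h against untreated differed from the effect at 30 min against DMSO. MARS1, the only one of the 37 genes described here among them, differed by 0.74 on the log2 scale, and by 0.23 without the DDIT3 reads, where it no longer passed. Of the 14 tested genes of the integrated stress response list, 8 passed, all higher, against 1.27% of all genes in that direction. Among those named in the report, CHAC1 differed by 4.35, SESN2 by 2.06, DDIT3 by 1.95, SLC3A2 by 1.41 and ASNS by 1.28. Time, kind of control and experiment cannot be told apart in these values.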

How the results depend on the processing

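No member passed at 30 min in any alternative run. The 5 members called at 2 h became 0 with no filter on low values, 1 with a mean of at least 5 RPKM (which leaves few members to test) and 9 with voom and the replicate block, where 25.3% of all genes passed. Those 9 held 1 lower, mitochondrial gene, IARS2 (log2 fold change -0.26, adjusted p = 0.0441 by limma voom). Leaving out 1 library gave 1 to 9: 9 without untreated replicate 1, 7 without untreated replicate 2, 2 without merbarone 2 h replicate 1 and 1 without merbarone 2 h replicate 2. In these fits 37.2%, 19.7%, 4.97% and 6.03% of all genes passed. With no filter the adjusted p by limma were 0.0812 (MARS1) to 0.135 (TARS1). In the difference between effects, 1 member passed, against 3 with no filter, 0 with a mean of at least 5 RPKM, 3 without the variance trend and 0 with MARS1 stripped of DDIT3 reads; leaving out any 1 library gave 1. The cause of these shifts was not tested. The 2 h cytosolic minus mitochondrial median of 0.20 was 0.27 with a pseudocount of 0.1, 0.28 with voom and 0.28 with voom and the block, and 0.14 (without untreated replicate 2) to 0.30 (without untreated replicate 1) with 1 library left out. At 30 min, leaving out 1 library gave -0.01 to 0.04.

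At 2 h the libraries share only a number, with a correlation of deviations of 0.30. With the replicate block 7 members passed at 2 h, the 5 with SARS1 (adjusted p = 0.00306 by limma) and PARS2 (0.0112), where 32.2% of all genes passed. In the difference, 7 passed with the block, where 19.1% of all genes did, and 6 with voom and the block. At 30 min, where the numbers pair the libraries, the block changed no call among members. Of 1408 single-member values compared, 31 gained and 12 lost the call, and 72 changed sign where neither value passed. Adjusted p over the alternatives of the 2 h calls ran to 0.238 for AARS1 and TARS1, 0.153 for GARS1, 0.0960 for CARS1 and 0.0812 for MARS1. A planned quasi-likelihood count test on recovered reads was not run. At the depth of the 2 h experiment, MARS2, with 73 to 96 reads a library, is the least precise member (SE 0.21 on reads).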
